A study of Mus musculus with 24 samples.

Results

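Livers with a hepatic knockout of Tsc1, Atg5 and Nfe2l2 were set against livers with a hepatic knockout of Tsc1 only, to see what changes with Atg5 loss in a Tsc1-deleted liver that has no Nfe2l2. Nfe2l2 encodes the transcription factor NRF2, and the triple knockout is called Nrf2 TKO here. The members were 4 libraries with a triple knockout label and 4 with a TSC1 KO label, chosen by the genotype in the column names of the count table, 8 of the 24 libraries of the series. Both groups came from C57BL/6J mice aged 2 months and both carry the Tsc1 deletion, so by label they differ in Atg5 and in Nfe2l2, whose parts cannot be told apart in this contrast. One Nrf2 TKO library also differed in sex, as given below. The other genotypes, with 4 libraries each, are wild type (WT), Atg5 KO, the DKO that lacks Atg5 and Tsc1, and a triple knockout of Atg5, Tsc1 and p62 that entered the model only. Liver RNA of the same age and strain was sequenced in every group. The labels call every deletion hepatic, and the sources used here do not give their driver or the sex of the mice. No label ties a library to an animal of its own, and the p-values therefore reflect only how far these libraries spread, which may be technical.

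TSC1, with TSC2, restrains the growth kinase complex mTORC1, which is active without it and which holds autophagy down. ATG5 is part of the conjugation machinery that attaches LC3 to the growing autophagosome, and a liver without it accumulates the cargo receptor p62, the product of Sqstm1. p62 binds KEAP1, the adaptor that marks NRF2 for degradation. NRF2 with a small MAF partner binds antioxidant response elements and is known in liver for driving glutathione synthesis, glutathione transferases, quinone and carbonyl reductases, NADPH supply and conjugation and export of foreign compounds.

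Total counts ran from 11403975 to 12465339 in TSC1 KO and from 10494080 to 12221723 in Nrf2 TKO. One Nrf2 TKO library stood apart by sex. Xist, the RNA of the silenced X chromosome of females, had 14173 counts in Nrf2 TKO replicate 2, 48 in replicate 3 and 1 to 4 in the other 6 libraries. The Y-linked gene Ddx3y had 5 counts in that library and 827 to 987 in the other 7. Uty, Kdm5d and Eif2s3y, also on the Y, had 0, 1 and 2 counts in it. Nrf2 TKO replicate 2 was a female-type library among male-type libraries, and each gene list below is given with and without it. In Nrf2 TKO replicate 4, acute-phase and metallothionein genes stood above the other libraries, with Lcn2 at 591 CPM (counts scaled to a common library size by the TMM method) against 37.3 to 43.2 in the other Nrf2 TKO libraries and 5.90 to 16.5 in TSC1 KO. On the first principal component of the 2000 most variable genes (52.7% of the variance) Nrf2 TKO replicate 3 lay nearest to TSC1 KO, at 5.50 against 34.9 to 58.1 in the other 3 and -45.4 to -26.6 in TSC1 KO. Alb, the defining hepatocyte product, was read at 36446 to 47389.6 CPM in TSC1 KO and 40116 to 51813 CPM in Nrf2 TKO, so the labelled tissue was present in all 8.

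Among the targeted genes, the label of the triple knockout was borne out by Nfe2l2. Its level was 82.2, 87.5, 95.7 and 107 CPM in TSC1 KO and 11.8, 17.7, 8.72 and 8.69 CPM in Nrf2 TKO. No Nrf2 TKO library came near any TSC1 KO library, with a log2 fold change of -2.98 ± 0.21 (SE) and an adjusted p of 4.8e-09. Atg5 read 88.6, 81.9, 79.8 and 84.5 CPM in TSC1 KO and 35.2, 35.98, 52.98 and 39.98 CPM in Nrf2 TKO, a log2 fold change of -1.03 ± 0.12 and an adjusted p of 1.7e-05. The groups did not overlap, yet Atg5 reads remained in all Nrf2 TKO libraries, at a level above the 22.5 to 31.4 CPM of WT. In the libraries labelled Atg5 KO the gene read 38.6 to 46.7 CPM, also above WT, so a count over the whole gene does not check that label. Tsc1 read 29.1 to 33.8 CPM in TSC1 KO, 21.2 to 37.03 in Nrf2 TKO and 33.1 to 36.7 in WT, which checks nothing about its deletion. Sqstm1 read 811, 788, 668 and 684 CPM in TSC1 KO and 535, 552, 575 and 975 CPM in Nrf2 TKO, where replicate 4 was the only one above the TSC1 KO range, and its change of -0.16 ± 0.25 did not pass the test (adjusted p = 0.67). Sqstm1 overlaps Mrnip on the opposite strand.

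**Figure D1:**
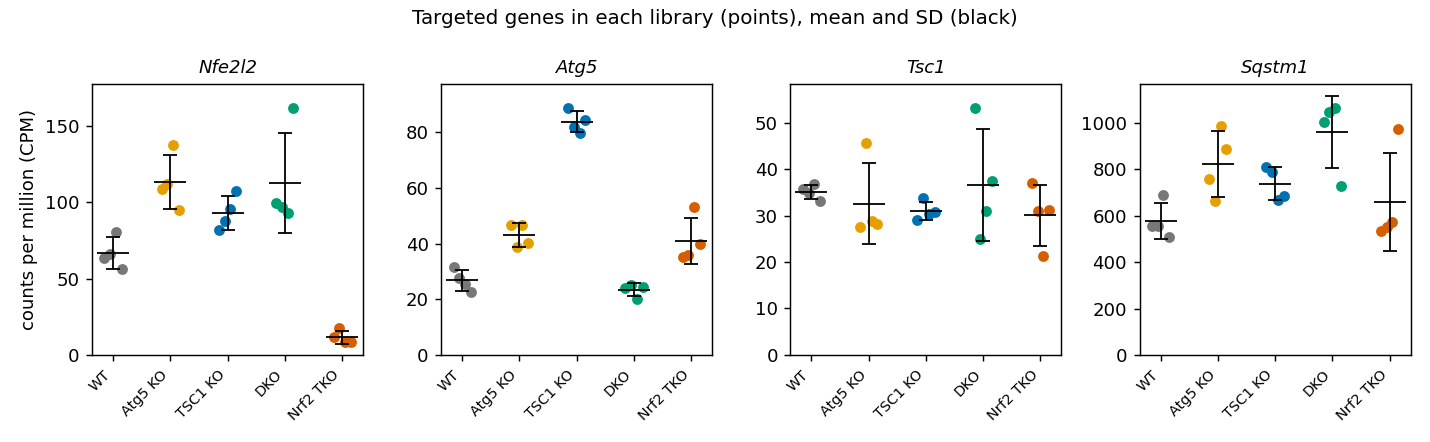
Levels of the targeted genes in CPM (y axis) in each library of 5 genotypes (points), with the mean and SD (black). Nfe2l2 lies at 8.69 to 17.7 CPM in Nrf2 TKO, below every other library shown, while Atg5 is highest in TSC1 KO and Tsc1 does not separate the genotypes.

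Of 15851 genes tested, 3790 (23.9%) differed between Nrf2 TKO and TSC1 KO at an adjusted p under 0.05, 2306 (14.5%) of them higher in Nrf2 TKO and 1484 (9.36%) lower. Without Nrf2 TKO replicate 2 the numbers were 1402 (8.84%) higher and 889 (5.61%) lower. Of the 3790 genes, 2182 were called in the same direction in both fits and 0 had the opposite sign, 1349 of the 2306 higher genes and 833 of the 1484 lower genes. Leaving out TSC1 KO replicate 1 gave 1447 higher and 784 lower genes, so that library weighed about as much as the female-type one. With libraries scaled by total counts alone, the median of all genes moved up by 0.19 on the log2 scale and the split became 3298 higher to 575 lower. The groups did not overlap in either direction for 2016 genes higher (12.7%) and 1513 lower (9.55%), and 2692 of the called genes were among these.

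**Figure D2:**
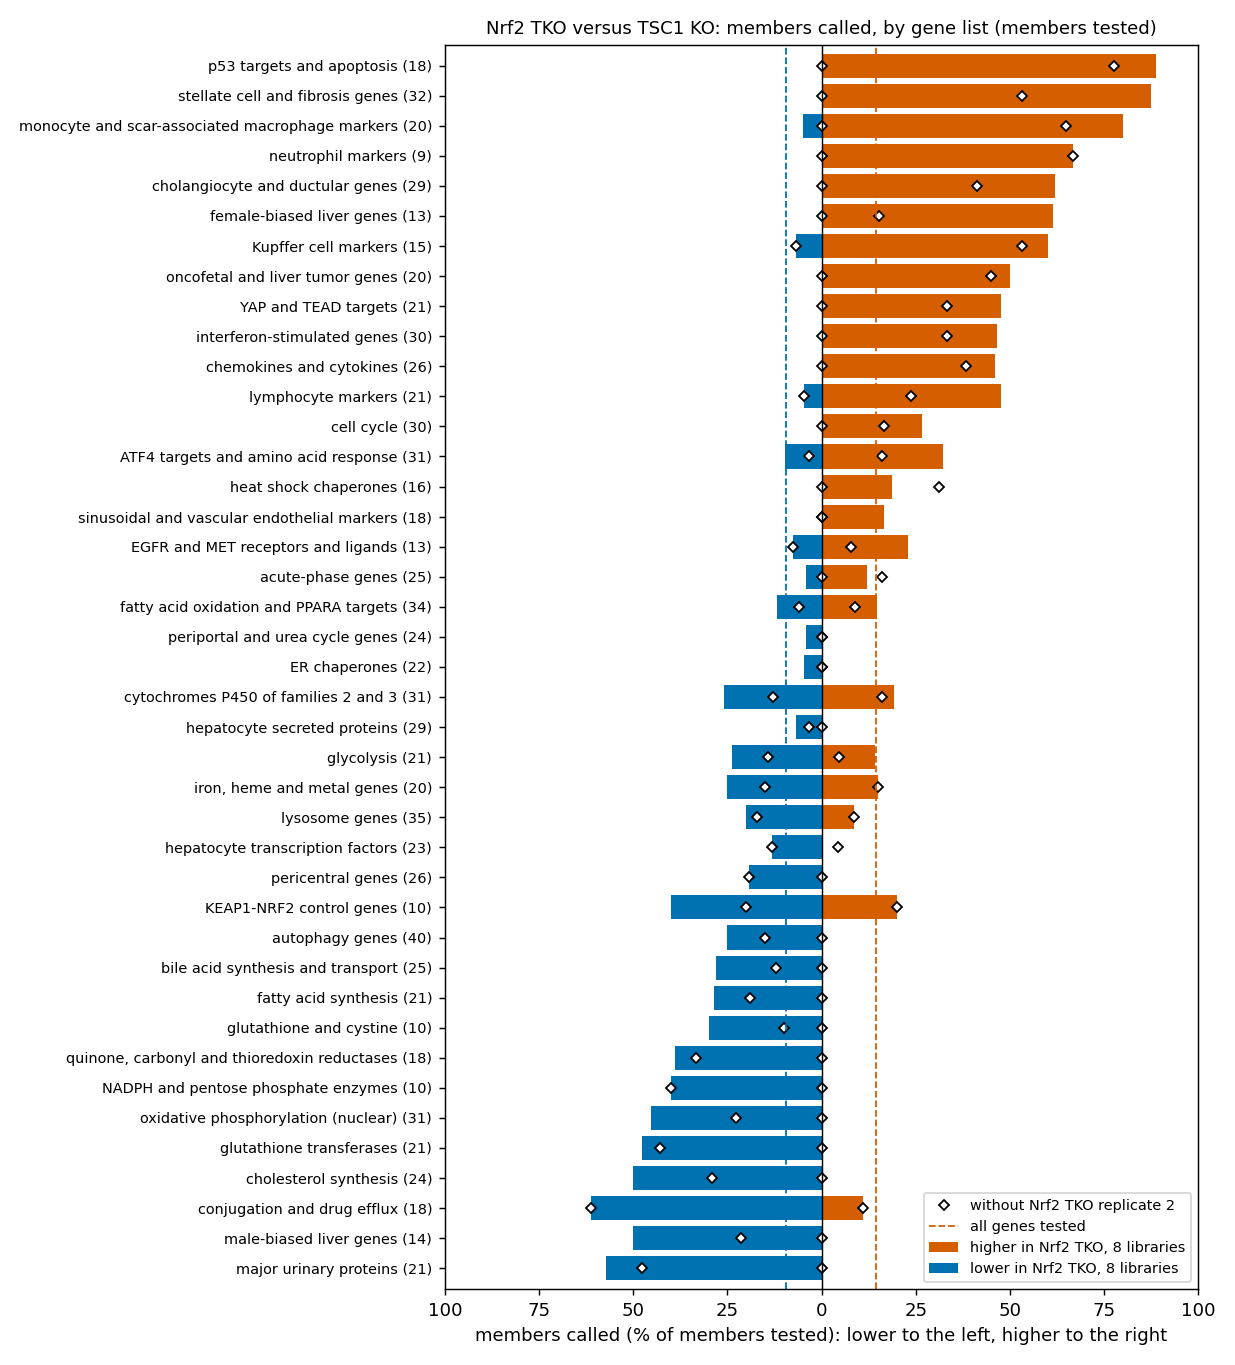
Share of the tested members of each gene list (number tested in brackets) called lower (left, blue) or higher (right, orange) in Nrf2 TKO than in TSC1 KO, in percent, with the share without Nrf2 TKO replicate 2 as diamonds and the share over all genes tested, 14.5% higher and 9.36% lower, as dashed lines. Conjugation genes and glutathione transferases lie far to the left with and without the library, while female-biased genes lose most of their bar without it.

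The detoxification genes on which NRF2 is known to act were the first group examined. The core of the antioxidant response element, TGACNNNGC on either strand, was searched in the RefSeq promoters of the members, 250 bases before to 50 after each start (GRCm38.p6). It was present in 17 of the 68 members with a promoter in the table (25%), against 16.8% of 11372 tested genes with one and 12.4% of 32851 promoters. Among members called lower it was present in 7 of 30 (23.3%), and among all genes called lower in 16.5%. Of the members named below, the windows of 5 that were called lower are printed in the direction of the gene, with the match in capitals, to show which letters such an element has in genes of glutathione synthesis, conjugation, redox repair and sugar activation.
Gclm, chr3:122245407-122245447, plus strand: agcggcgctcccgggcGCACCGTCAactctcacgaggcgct
Gsta3, chr1:21240448-21240488, plus strand: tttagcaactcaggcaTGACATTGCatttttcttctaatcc
Mgst1, chr6:138140455-138140495, plus strand: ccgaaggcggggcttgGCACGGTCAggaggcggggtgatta
Txnrd1, chr10:82859098-82859138, plus strand: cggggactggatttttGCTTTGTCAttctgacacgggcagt
Ugdh, chr5:65435950-65435990, minus strand: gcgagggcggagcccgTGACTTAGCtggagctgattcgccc
A match is a description of the letters and not evidence of binding.

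Glutathione transferases join glutathione to reactive compounds, and 10 of 21 members fell while 0 rose, with a median log2 change of -0.92 beside 0.07 over all genes tested. Without Nrf2 TKO replicate 2, 9 members were called lower. Gstm1, a mu-class transferase, read 2272, 2781, 2111 and 2765 CPM in TSC1 KO and 608, 548, 250.2 and 359 CPM in Nrf2 TKO. Every Nrf2 TKO library was below every TSC1 KO library by a wide gap, with a log2 fold change of -2.49 ± 0.34 (adjusted p = 8.6e-05) and -2.61 without replicate 2. Gstm4 went from 136, 111, 99.6 and 115 CPM to 28.5, 32.9, 23.6 and 20.8 CPM, a change of -2.12 ± 0.34 (adjusted p = 0.00041). Gstp1, of the pi class, went from 1438, 838, 735 and 760.2 CPM to 100.99, 30.03, 388 and 128 CPM, with replicate 2 lowest and replicate 3 highest, and a change of -2.54 ± 0.48 (adjusted p = 0.0015). Gsta3 and Mgst1, whose windows are printed above, changed less, by -1.29 ± 0.20 and -0.80 ± 0.16 on the log2 scale (adjusted p = 0.00027 and 0.0018). Gsta2 and Gstm3 changed by -1.91 ± 0.47 and -2.07 ± 0.52 (adjusted p = 0.008 and 0.0085). The calls of these 7 transferases held when any 1 of the 8 libraries was left out. Transferases of a class have similar sequences, so the counting may have divided reads among them.

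Conjugation and efflux genes fell in the main. These enzymes attach glucuronic acid or split esters, and the transporters carry the products out of the cell. Of 18 members, 11 fell and 2 rose, with a median of -1.27, and the numbers were the same without Nrf2 TKO replicate 2. Ugt2b35, a glucuronosyltransferase, read 361, 309.7, 316 and 324 CPM in TSC1 KO and 33.4, 26.99, 57.2 and 19.1 CPM in Nrf2 TKO. The highest Nrf2 TKO library was far below the lowest TSC1 KO library, and the log2 fold change was -3.26 ± 0.27 (adjusted p = 1.3e-07). Ces1g, a carboxylesterase, read 153, 92.1, 125 and 168 CPM and 15.05, 13.8, 6.78 and 5.41 CPM, a change of -3.70 ± 0.41 (adjusted p = 1.1e-05). Ces1f and Ces2c, carboxylesterases outside the list, were with Ces1g among the 12 largest decreases of called genes with no overlap and at least 5 CPM on average in the group with more, at -4.39 ± 0.56 and -3.91 ± 0.45 (adjusted p = 8.3e-05 and 1.5e-05). Abcc3, a basolateral exporter of conjugates, fell from 365, 292, 328 and 305 CPM to 79.5, 147, 76.7 and 51.4 CPM, a change of -1.86 ± 0.27 (adjusted p = 0.00012). Ugdh, which makes the glucuronic acid donor, changed by -1.17, Ugt2b5 by -2.45, Entpd5 by -1.36 and Ces2a by -1.77 (adjusted p = 0.0052, 4.8e-06, 0.00028 and 0.00059). Abcc1, another exporter, rose from 1.31, 2.28, 1.84 and 2.46 CPM to 5.35, 5.28, 4.07 and 5.70 CPM (1.36 ± 0.33, adjusted p = 0.0061), and Abcc2 did not pass the test (-0.18 ± 0.14, adjusted p = 0.35). The transporter Abcc12, which is in no list, was also among these decreases (-3.59 ± 0.71, adjusted p = 0.0019).

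In the reductases of quinones, carbonyls and thioredoxin, 7 of 18 members fell and 0 rose, 6 without Nrf2 TKO replicate 2, and 4 without TSC1 KO replicate 1 or with total counts alone. Aox1, an aldehyde oxidase, read 86.1, 84.4, 74.7 and 83.3 CPM in TSC1 KO and 23.96, 24.1, 20.9 and 17.7 CPM in Nrf2 TKO, a change of -1.92 ± 0.24 (adjusted p = 3.3e-05). The 4 libraries within each group lay close together. Akr1c19, Akr7a5 and Akr1c13, aldo-keto reductases, changed by -1.70 ± 0.23, -1.22 ± 0.15 and -1.11 ± 0.17 (adjusted p = 0.0001, 3.3e-05 and 0.00027). Txnrd1, thioredoxin reductase, went from 140.4, 167, 164 and 169 CPM to 75.05, 66.2, 119 and 149.7 CPM, where replicates 3 and 4 lay nearest to TSC1 KO. Its change of -0.65 ± 0.23 (adjusted p = 0.046) lost its call without Nrf2 TKO replicate 1 or 2 or any TSC1 KO replicate. Nqo1, a quinone reductase widely used as an NRF2 readout, was chosen after its values were seen. It read 6.89, 8.25, 8.50 and 9.36 CPM in TSC1 KO and 4.95, 6.10, 2.23 and 2.03 CPM in Nrf2 TKO, with no overlap, but its change of -1.09 ± 0.42 did not pass the test (adjusted p = 0.065). Heme oxygenase, Hmox1, also chosen so, changed by 0.14 ± 0.33 (adjusted p = 0.8).

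Glutathione synthesis and cystine genes gave a weaker picture, with 3 of 10 members lower and 0 higher, 1 lower without Nrf2 TKO replicate 2 or TSC1 KO replicate 2, and 0 with total counts alone. Gclm, the modifier subunit of the enzyme that starts glutathione synthesis, fell from 285, 261, 275 and 295 CPM to 205, 189, 224 and 158 CPM, without overlap (-0.52 ± 0.13, adjusted p = 0.0082). Its partner Gclc, the catalytic subunit, read 391, 478, 403 and 355 CPM and 209.8, 169.8, 296 and 173 CPM. The difference of -0.94 ± 0.32 (adjusted p = 0.039) lost its call in every leave-one-out fit but the one without Nrf2 TKO replicate 3. Slc7a11, the cystine importer, was low in both groups at 0.290 to 0.887 and 0.484 to 3.07 CPM and did not pass the test (adjusted p = 0.44). In the NADPH and pentose phosphate list 4 of 10 members fell and 0 rose, 4 also without replicate 2. Malic enzyme, Me1, which yields NADPH, went from 259, 83.1, 95.5 and 81.8 CPM to 27.1, 43.9, 25.6 and 31.3 CPM, with TSC1 KO replicate 1 far above the other 3 of its group (-2.02 ± 0.31, adjusted p = 0.00028). Transketolase, Tkt, fell from 172, 134, 149.9 and 163 CPM to 90.9, 91.4, 87.8 and 74.2 CPM (-0.85 ± 0.20, adjusted p = 0.0049). Genes of the KEAP1-NRF2 control list divided, with 4 of 10 lower, the deleted Nfe2l2 among them, and 2 higher, 2 and 2 without replicate 2 and 1 lower with total counts alone. Keap1 itself changed by -0.46 ± 0.09 (adjusted p = 0.0015) and Maff, a small MAF partner, by 1.80 ± 0.38 (adjusted p = 0.0027).

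**Figure D3:**
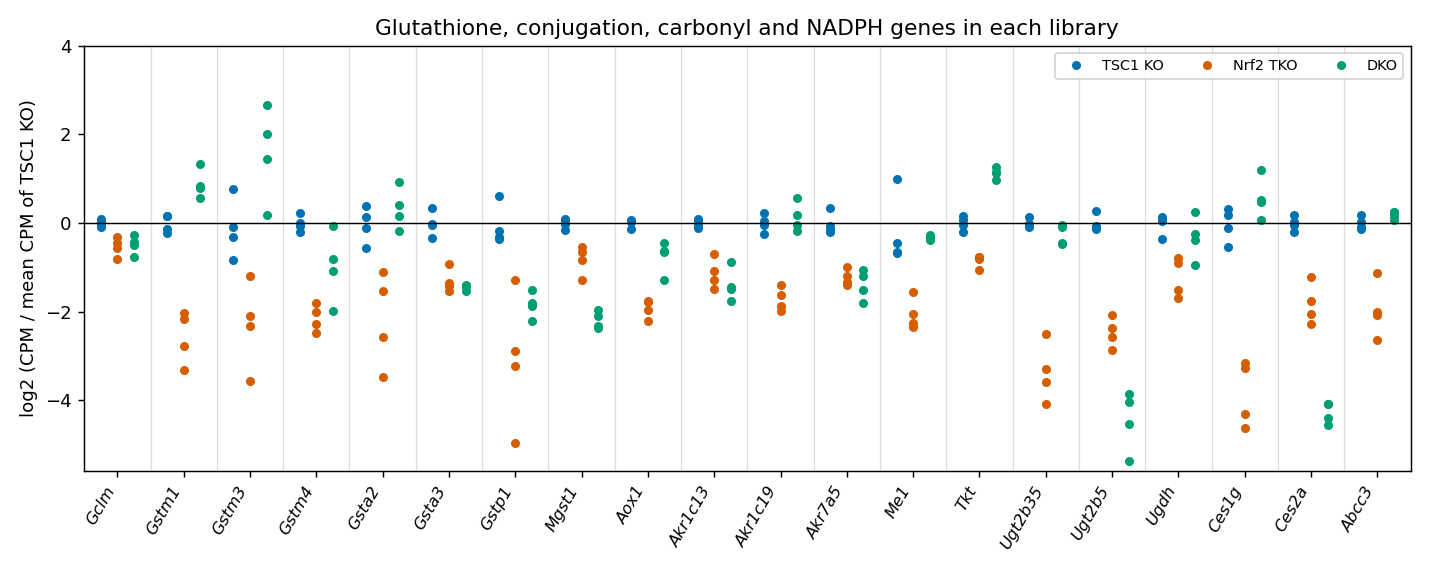
Level of 20 detoxification genes in each library relative to the mean of TSC1 KO (y axis, log2 ratio of CPM) for TSC1 KO (blue), Nrf2 TKO (orange) and DKO (green), 4 points each. The 20 were picked from genes called lower in Nrf2 TKO, so their place below the TSC1 KO mean follows from the choice. Abcc1, which rose, and Abcc2, which did not pass the test, are not shown. DKO, with Nfe2l2 in place, lies above the mean for Tkt and below it for Mgst1 and Ugt2b5.

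Set beside DKO, which by its label differs from TSC1 KO in Atg5 only, these lists did not behave as one. DKO and Nrf2 TKO are compared with the same TSC1 KO libraries, so their values are given side by side, and the test of the difference is Nrf2 TKO against DKO. In DKO, 10569 genes (66.7%) differed from TSC1 KO, 36.6% higher and 30.0% lower, and 8861 (55.9%) differed between Nrf2 TKO and DKO, 26.7% higher and 29.2% lower in Nrf2 TKO. Of the transferases 7 were higher and 10 lower in DKO than in TSC1 KO, and between Nrf2 TKO and DKO 9 were lower and 5 higher in Nrf2 TKO. Gstm1 stood at 4657 ± 1081 CPM (SD, n = 4) in DKO. Its log2 change over TSC1 KO was -2.49 in Nrf2 TKO and 0.91 in DKO, a difference of -3.40 ± 0.35 (adjusted p = 4.2e-08). Ugt2b35 changed by -0.25 in DKO (adjusted p = 0.38), and the difference was -3.01 ± 0.27 (adjusted p = 5.5e-09). For Abcc3 and Ces1g the differences were -2.04 ± 0.27 and -4.33 ± 0.42 (adjusted p = 1e-06 and 2.7e-08). A second set was low in DKO too, where Nfe2l2 is not deleted. Gsta3 changed by -1.45 in DKO and by -1.29 in Nrf2 TKO, a difference of 0.16 ± 0.20 that did not pass the test (adjusted p = 0.52). Akr7a5 and Akr1c13 likewise gave -1.37 and -1.36 in DKO, with differences of 0.14 ± 0.15 and 0.25 ± 0.17 (adjusted p = 0.44 and 0.23). Mgst1, Ugt2b5 and Ces2a were lower in DKO than in Nrf2 TKO, at -2.18, -4.35 and -4.28 over TSC1 KO (adjusted p of the difference = 2.6e-07, 1.5e-06 and 6.2e-07). All 8 members of the glutathione and cystine list that differed between Nrf2 TKO and DKO were lower in Nrf2 TKO. Gpx2, a glutathione peroxidase, read 0.495, 0.0743, 0 and 0 CPM in Nrf2 TKO, 0.437, 0.759, 1.26 and 0.591 in TSC1 KO and 56.4, 53.8, 40.8 and 34.4 in DKO, a difference from DKO of -8.31 ± 0.76 (adjusted p = 2.1e-08). Gclm did not pass the test against DKO (-0.04 ± 0.13, adjusted p = 0.82).

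Autophagy genes, which include the deleted Atg5, had 10 of 40 members lower and 0 higher, 6 lower without Nrf2 TKO replicate 2, 5 without Nrf2 TKO replicate 1 and 6 without TSC1 KO replicate 1. Atg101, of the initiating kinase complex, fell from 64.9, 56.4, 54.9 and 52.7 CPM to 30.2, 32.6, 37.2 and 27.5 CPM (-0.84 ± 0.18, adjusted p = 0.0026), and Atg7, which activates LC3, changed by -0.43 ± 0.10 (adjusted p = 0.0039). With total counts alone 3 members were lower and the median moved from -0.18 to 0.01. Of 35 lysosome genes 7 fell and 3 rose, 6 and 3 without replicate 2, 4 lower without TSC1 KO replicate 2 and 1 lower with total counts alone. The share that rose was below the 14.5% of all genes tested, and 9.36% of all genes fell. The 3 that rose were Ctss, Cd63 and Atp6v0d2, which are known from macrophages. Ctss, a cathepsin, read 11.8, 17.1, 20.7 and 23.3 CPM in TSC1 KO and 66.8, 60.3, 30.9 and 60.2 CPM in Nrf2 TKO (1.58 ± 0.29, adjusted p = 0.00097). Iron, heme and metal genes had 3 of 20 higher, a share near that of all genes, and 5 lower, and 3 and 3 without replicate 2. Ferritin light chain, Ftl1, fell from 2324, 1639, 1707 and 1603 CPM to 726, 535, 592 and 555 CPM (-1.59 ± 0.25, adjusted p = 0.00031), and Hfe, which takes part in iron sensing, fell from 50.3, 66.5, 46.1 and 52.999 CPM to 21.2, 22.2, 20.6 and 24.05 CPM (-1.29 ± 0.14, adjusted p = 5e-06). For both genes the 4 Nrf2 TKO values lay close together. In DKO the changes were -1.78 for Ftl1 and -0.73 for Hfe, and the difference passed the test for Hfe (-0.57 ± 0.14, adjusted p = 0.0013) and not for Ftl1 (0.18 ± 0.25, adjusted p = 0.55).

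Targets of p53 and apoptosis genes rose as a list. Of 18 members, 16 rose and 0 fell, 14 without Nrf2 TKO replicate 2, and the median was 0.81. Phlda3, a p53-induced inhibitor of AKT, read 1.09, 1.71, 1.55 and 1.67 CPM in TSC1 KO and 8.71, 19.9, 9.78 and 11.9 CPM in Nrf2 TKO. The lowest Nrf2 TKO library was above the highest TSC1 KO library for it and for Tnfrsf10b, a death receptor, which read 0.656, 0.854, 0.966 and 0.591 and 4.16, 8.18, 4.46 and 8.30 CPM. The log2 changes were 3.05 ± 0.36 and 3.02 ± 0.38 (adjusted p = 1.4e-05 and 3.8e-05). Eda2r, another receptor of that family, changed by 2.45 ± 0.39, Zmat3, an RNA-binding target, by 1.53 ± 0.23 and Ccng1, cyclin G1, by 0.76 ± 0.15 (adjusted p = 0.00032, 0.00026 and 0.0014). Cdkn1a, the cell cycle inhibitor p21, was chosen after its values were seen: it went from 7.65, 9.39, 4.83 and 3.94 CPM to 18.9, 32.3, 76.03 and 150.4 CPM, with replicate 4 highest (3.42 ± 0.65, adjusted p = 0.0017). All 6 calls held without any 1 library. In DKO over TSC1 KO 15 members were higher and 1 lower, and between Nrf2 TKO and DKO 8 were lower in Nrf2 TKO and 1 higher. For Eda2r and Cdkn1a the difference from DKO was 0.35 ± 0.35 and -0.01 ± 0.56 (adjusted p = 0.41 and 0.99), and for Phlda3 it was -1.18 ± 0.29 (adjusted p = 0.0015).

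Among cell cycle genes 8 of 30 rose and 0 fell, 5 without Nrf2 TKO replicate 2. Ccnd1, cyclin D1, read 10.3, 20.9, 17.8 and 14.7 CPM in TSC1 KO and 32.4, 61.2, 45.04 and 46.4 CPM in Nrf2 TKO (1.54 ± 0.30, adjusted p = 0.0017), and Ccnd2 changed by 1.24 ± 0.25 (adjusted p = 0.0019). Ccna2 and Ccnb1, cyclins of later phases, changed by 1.56 ± 0.36 and 2.76 ± 0.61 (adjusted p = 0.0044 and 0.0034). Pcna, a replication clamp, did not pass the test (0.09 ± 0.15, adjusted p = 0.72). Targets of YAP and TEAD, the growth regulators of the Hippo pathway, had 10 of 21 higher and 0 lower, 7 without replicate 2. Ankrd1 went from 2.84, 3.22, 5.51 and 8.18 CPM to 48.9, 51.7, 21.9 and 28.7 CPM (2.93 ± 0.50, adjusted p = 0.00071), and Yap1 itself did not pass the test (-0.17 ± 0.12, adjusted p = 0.32).

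In bulk liver RNA, more cells of a type and more RNA per cell cannot be told apart. Stellate cell and fibrosis genes had 28 of 32 higher and 0 lower, but 17 without Nrf2 TKO replicate 2 and 16 without TSC1 KO replicate 1, and the median moved from 1.21 to 0.97 without replicate 2. Their summed level was 742 to 1274 CPM in TSC1 KO and 1406 to 3027 CPM in Nrf2 TKO, without overlap. Col1a1, the main chain of scar collagen, read 8.86, 15.8, 18.5 and 14.97 CPM in TSC1 KO and 58.1, 94.9, 28.9 and 45.8 CPM in Nrf2 TKO. Replicate 2 was highest, replicate 3 lowest, and all 4 lay above TSC1 KO (1.97 ± 0.33, adjusted p = 0.00068, and 1.60 ± 0.31 with 0.003 without replicate 2). Col3a1 gave 25.9, 47.8, 52.6 and 37.3 and 223, 291, 82.3 and 106 CPM (2.0999 ± 0.36, adjusted p = 0.00072). Timp1, an inhibitor of matrix proteases, went from 0.219, 0.190, 0.387 and 0.296 CPM to 2.38, 2.23, 1.07 and 2.03 CPM (2.77 ± 0.43, adjusted p = 0.00026). Tgfb1, the fibrogenic cytokine, rose by 0.91 and Col4a1, of the basement membrane, by 1.25 (adjusted p = 0.0012 and 0.0011). In DKO over TSC1 KO 27 of the list were higher and 2 lower, and 19 were lower and 4 higher in Nrf2 TKO than in DKO. Timp2 and Bgn were called with all libraries (1.09 ± 0.31 and 1.03 ± 0.31, adjusted p = 0.014 and 0.022) but not without Nrf2 TKO replicate 2 or without TSC1 KO replicate 1. Fbn2, a fibrillin outside the list, was among the largest increases, with 0.765, 0, 0.290 and 0.493 CPM in TSC1 KO and 11.2, 7.36, 3.68 and 5.50 CPM in Nrf2 TKO (4.17 ± 0.51, adjusted p = 2.1e-05).

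Cholangiocyte and ductular genes had 18 of 29 higher and 0 lower, 12 without Nrf2 TKO replicate 2, with a median of 1.101. Spp1, osteopontin, read 510.1, 815, 851 and 666 CPM in TSC1 KO and 1449.7, 2667, 1610.2 and 2419 CPM in Nrf2 TKO (1.52 ± 0.27, adjusted p = 0.00077). Sox9, a progenitor and ductal transcription factor, went from 17.6, 30.4, 23.5 and 17.7 CPM to 51.7, 59.03, 36.1 and 62.3 CPM (1.23 ± 0.25, adjusted p = 0.0024), and Sox4 from 6.34, 9.96, 6.96 and 6.90 CPM to 21.7, 29.9, 18.5 and 13.6 CPM (1.47 ± 0.26, adjusted p = 0.00071). The groups were apart for all 3 genes, and the calls held without any 1 library. Krt7, a ductal keratin, changed by 1.15 ± 0.28 and Cldn4, a claudin, by 1.57 ± 0.39 (adjusted p = 0.0068 and 0.0074), whereas Krt8 and Krt18, keratins that hepatocytes also make, did not pass the test (0.12 ± 0.23 and 0.11 ± 0.20, adjusted p = 0.73 and 0.71). In DKO all 27 members that differed from TSC1 KO were higher, and all 27 that differed between Nrf2 TKO and DKO were lower in Nrf2 TKO. Sox9 and Cldn4 changed by 2.87 and 5.99 in DKO, and the differences were -1.64 ± 0.25 and -4.42 ± 0.35 (adjusted p = 9.4e-06 and 1.8e-09). Oncofetal and liver tumor genes had 10 of 20 tested higher and 0 lower, 9 without replicate 2. Cd44 rose from 2.73, 3.98, 4.25 and 3.94 CPM to 17.3, 15.2, 8.91 and 13.4 CPM (1.87 ± 0.25, adjusted p = 8.3e-05) and S100a6 by 2.07 (adjusted p = 0.0001). H19, an imprinted fetal RNA, rose from 0.547, 2.37, 1.35 and 3.55 CPM to 19.5, 95.8, 5.33 and 3.77 CPM, with replicate 2 highest (3.98 ± 0.90, adjusted p = 0.0051), and its change was 2.26 without replicate 2 (adjusted p = 0.037).

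Most macrophage markers rose. Of 20 markers of monocytes and scar-associated macrophages 16 rose and 1 fell, and 13 rose and 0 fell without Nrf2 TKO replicate 2. Lyz2, lysozyme, read 20.8, 27.6, 29.9 and 30.3 CPM in TSC1 KO and 80.6, 92.3, 51.4 and 96.4 CPM in Nrf2 TKO (1.56 ± 0.27, adjusted p = 0.0006). Gpnmb, a marker of scar-associated macrophages, went from 0.219, 0.474, 0.290 and 0.296 CPM to 2.08, 3.87, 1.16 and 1.93 CPM (2.80 ± 0.58, adjusted p = 0.0023), and the groups did not overlap. Apoe, which hepatocytes make in bulk, was the member that fell (-0.47 ± 0.17, adjusted p = 0.044), and it lost its call in every leave-one-out fit but the one without Nrf2 TKO replicate 3. Of 15 Kupffer cell markers, for the resident macrophages, 9 rose and 1 fell, 8 and 1 without replicate 2. The complement gene C1qc went from 9.29, 7.78, 9.76 and 17.1 CPM to 38.1, 36.1, 24.02 and 36.99 CPM (1.62 ± 0.30, adjusted p = 0.0011), and Csf1r, the receptor macrophages need, from 11.9, 13.6, 17.98 and 19.5 CPM to 38.1, 44.3, 28.9 and 41.7 CPM (1.28 ± 0.25, adjusted p = 0.0017). The iron exporter Slc40a1 was the Kupffer member that fell, from 119.6, 133, 147 and 135 CPM to 68.9, 87.8, 69.4 and 40.2 CPM (-1.003 ± 0.21, adjusted p = 0.0022). Of the 20 scar-associated and monocyte markers 18 were higher in DKO than in TSC1 KO, and 16 were lower in Nrf2 TKO than in DKO. Lymphocyte markers had 10 of 21 higher and 1 lower, but 5 higher without any 1 of Nrf2 TKO replicates 1 and 2 and TSC1 KO replicates 1 and 3. Ptprc, the common leukocyte antigen, went from 4.59, 5.03, 4.93 and 6.50 CPM to 20.8, 17.3, 8.43 and 19.2 CPM, with replicate 3 lowest (1.64 ± 0.32, adjusted p = 0.0016). Endothelial markers had 3 of 18 higher, a share near that of all genes, and 0 without replicate 2.

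Several inflammatory genes were highest in Nrf2 TKO replicate 4. Neutrophil markers had 6 of 9 higher and 0 lower, also 6 without replicate 2 but 3 without replicate 4, and their summed level was 8.75 to 21.6 CPM in TSC1 KO and 47.3 to 638 CPM in Nrf2 TKO, most of it Lcn2, which hepatocytes also make. Csf3r, the receptor of the neutrophil growth factor, read 0.437, 0.664, 0.580 and 2.27 CPM and 4.75, 4.09, 2.13 and 9.27 CPM (2.34 ± 0.47, adjusted p = 0.002). Replicate 4 was highest and TSC1 KO replicate 4 overlapped Nrf2 TKO replicate 3. Chemokines and cytokines had 12 of 26 higher and 0 lower, 10 without replicate 2 and 7 without replicate 4. Cxcl16 rose from 9.84, 9.77, 10.7 and 9.56 CPM to 25.9, 26.2, 14.9 and 24.7 CPM (1.20 ± 0.24, adjusted p = 0.0019), while Cxcl1, which draws neutrophils, went from 11.2, 18.5, 9.66 and 19.3 CPM to 29.2, 22.6, 84.6 and 441 CPM and lost its call without replicate 4 (3.30 ± 0.82, adjusted p = 0.0085). Of 25 acute-phase genes 3 rose and 1 fell, a share near that of all genes, with 4 and 0 without replicate 2 and 1 higher without replicate 4. In DKO 14 of them were lower and 2 higher than in TSC1 KO, and 20 were higher and 1 lower in Nrf2 TKO than in DKO. Il1rn, the interleukin 1 antagonist, was higher in every Nrf2 TKO library, at 21.8, 35.6, 22.5 and 33.6 CPM against 2.30, 4.65, 3.29 and 3.84 CPM (3.002 ± 0.44, adjusted p = 0.00025). Lcn2 and the metallothioneins Mt1 and Mt2 were among the 12 largest increases, at 4.14 ± 1.31, 3.88 ± 1.17 and 5.24 ± 1.43 (adjusted p = 0.029, 0.022 and 0.014), and none kept its call without replicate 4. Mt2 read 1.97, 15.1, 15.7 and 6.01 CPM in TSC1 KO and 59.2, 200.4, 93.7 and 1119 CPM in Nrf2 TKO. Interferon-stimulated genes had 14 of 30 higher and 0 lower, 10 without Nrf2 TKO replicate 2 and 6 without TSC1 KO replicate 1. Oas2, an antiviral sensor, went from 2.19, 1.42, 2.42 and 3.94 CPM to 13.9, 10.1, 8.62 and 20.4 CPM (2.40 ± 0.39, adjusted p = 0.0004), and it was higher in Nrf2 TKO than in DKO by 1.49 ± 0.35 (adjusted p = 0.0011). Of the 30 genes 8 were higher and 9 lower in Nrf2 TKO than in DKO, shares near those of all genes. How far the state of replicate 4 bears on the other lists was not tested beyond leaving it out.

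Of 29 secreted hepatocyte proteins 0 rose and 2 fell, 1 to 5 over the libraries left out in turn and 6 with DESeq2. Without overlap between the groups 8 were lower, and the median was -0.37. Over all genes tested 9.36% fell and 9.55% were lower without overlap. In DKO 28 of the 29 were lower than in TSC1 KO, and 28 were higher in Nrf2 TKO than in DKO. Alb read 43279, 47389.6, 43161 and 36446 CPM in TSC1 KO, 50835, 40116, 51813 and 41155 CPM in Nrf2 TKO and 6689.9, 7339, 5783 and 6806 CPM in DKO. Nrf2 TKO overlapped TSC1 KO (0.11 ± 0.26, adjusted p = 0.79) and stood above DKO by 2.79 ± 0.28 (adjusted p = 2.6e-08). The 24 periportal and urea cycle genes had 1 lower and 0 higher, 0 and 0 without replicate 2, against 23 lower in DKO, and Cps1, the entry enzyme of the urea cycle, changed by -0.04 ± 0.33 (adjusted p = 0.94). Of 22 ER chaperones 1 fell, 0 without replicate 2, 19 were lower in DKO, and 20 were higher in Nrf2 TKO than in DKO. Of 23 hepatocyte transcription factors 3 fell, a share near the 9.36% of all genes, and 0 rose, 3 and 1 without replicate 2. Among them were Cebpa, from 564, 487, 540.3 and 569 CPM to 298, 275, 385 and 284 CPM (-0.80 ± 0.14, adjusted p = 0.00059), and Nr1i3, the xenobiotic receptor CAR, with -1.39 ± 0.45 (adjusted p = 0.032), the latter losing its call in 5 of 8 leave-one-out fits. Hnf4a did not pass the test (0.03 ± 0.25, adjusted p = 0.94).

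The lists of cholesterol synthesis, oxidative phosphorylation and bile acid genes leaned lower. Cholesterol synthesis had 12 of 24 members lower and 0 higher, 7 without Nrf2 TKO replicate 2, 6 without TSC1 KO replicate 1 and 7 with total counts alone. Insig1, which retains the sterol sensor in the ER, went from 818, 682, 482 and 652 CPM to 452, 251, 262 and 208 CPM (-1.17 ± 0.29, adjusted p = 0.0074), and Stard4, a sterol carrier, from 163, 146, 131 and 159.98 CPM to 100.5, 63.9, 79.3 and 56.97 CPM (-0.996 ± 0.17, adjusted p = 0.00071). Hmgcs1, an early enzyme of the pathway, spread from 198 to 739 CPM in the triple knockout, short of the threshold (-0.63 ± 0.30, adjusted p = 0.13). Nuclear genes of oxidative phosphorylation had 14 of 31 lower and 0 higher, 7 without Nrf2 TKO replicate 2 or 4 and 6 without TSC1 KO replicate 1 or with total counts alone. The changes were small, with a median of -0.39, and -0.19 with total counts alone. Sdha, of complex II, read 784, 677, 629 and 605 CPM and 299, 316, 497 and 421 CPM (-0.81 ± 0.16, adjusted p = 0.0014). All 31 were lower in DKO than in TSC1 KO and all 31 were higher in Nrf2 TKO than in DKO. Bile acid genes had 7 of 25 lower and 0 higher, 3 without Nrf2 TKO replicate 2 and 14 without Nrf2 TKO replicate 3. Slco1a1, an uptake transporter with a male bias, fell from 354, 106, 345 and 228 CPM to 80.5, 13.98, 128 and 63.3 CPM (-1.85 ± 0.44, adjusted p = 0.0062). Of 26 pericentral genes 5 fell and 0 rose, also 5 without Nrf2 TKO replicate 2 but 8 without Nrf2 TKO replicate 3 and 3 without any 1 of Nrf2 TKO replicate 4 and TSC1 KO replicates 1, 3 and 4. Among them was Glul, glutamine synthetase, from 2015, 913, 1709 and 1868 CPM to 392, 1089.6, 933 and 544 CPM (-1.14 ± 0.29, adjusted p = 0.0083). The groups overlapped, with TSC1 KO replicate 2 below Nrf2 TKO replicates 2 and 3.

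Cytochromes P450 divided, with 6 of 31 higher and 8 lower, 5 and 4 without Nrf2 TKO replicate 2, and 3 lower without TSC1 KO replicate 3 or 4. Cyp2a5, a coumarin hydroxylase, was among the 12 largest decreases, from 475, 366, 433 and 597 CPM to 61.3, 83.6, 22.3 and 3.96 CPM. Every Nrf2 TKO library was far below TSC1 KO, replicate 4 most (-3.45 ± 0.62, adjusted p = 0.00095, and -4.004 without replicate 2), and it was higher in DKO (1.34, adjusted p = 0.043). Cyp2c68 rose from 105, 109, 105 and 113 CPM to 181, 244, 151 and 243 CPM (0.93 ± 0.21, adjusted p = 0.0041). Cyp4a14, a PPARA target that hydroxylates fatty acids, rose from 64.3, 196, 94.8 and 124 CPM to 986, 2357, 969 and 843 CPM (3.43 ± 0.95, adjusted p = 0.015) and lost its call without TSC1 KO replicate 1. Cyp2e1 and Cyp3a11, major drug-metabolising enzymes, did not pass the test (-0.32 ± 0.24 and -0.10 ± 0.36, adjusted p = 0.33 and 0.86).

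The remaining lists gave mixed counts, beside 14.5% higher and 9.36% lower over all genes tested. ATF4 targets and amino acid genes, which answer amino acid and translation stress, had 10 of 31 higher and 3 lower, but 5 and 1 without Nrf2 TKO replicate 2 and 4 higher without TSC1 KO replicate 1. Heat shock chaperones had 3 of 16 higher and 0 lower, 5 higher without Nrf2 TKO replicate 2 and 1 higher without Nrf2 TKO replicate 4 or without TSC1 KO replicate 2 or 3. Of 21 fatty acid synthesis genes 6 fell and 0 rose, 4 without replicate 2, and Dgat2, which makes triglyceride, went from 541, 473, 553 and 559 CPM to 278, 284, 421 and 362 CPM (-0.66 ± 0.15, adjusted p = 0.0047). Fatty acid oxidation and PPARA targets had 5 of 34 higher and 4 lower, shares near those of all genes, 3 and 2 without Nrf2 TKO replicate 2 and 9 lower without Nrf2 TKO replicate 3. Glycolysis genes had 3 of 21 higher, a share near that of all genes, and 5 lower, 1 and 3 without replicate 2. Pklr, the liver pyruvate kinase, went from 191, 81.3, 154 and 158 CPM to 35.1, 76.1, 93.4 and 57.7 CPM (-1.16 ± 0.25, adjusted p = 0.0035). Receptors and ligands of EGFR and MET had 3 of 13 higher and 1 lower, 1 and 1 without replicate 2. Of 6 red cell genes tested 1 fell and 0 without replicate 2.

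Sex-biased genes followed the female-type library in part. Of 13 tested female-biased genes 8 rose and 0 fell, and 2 rose without Nrf2 TKO replicate 2. Cyp2c69, Cyp2c40 and Cyp2a22, P450 enzymes that were among the 12 largest increases, read 39.995, 45.8 and 53.4 CPM in that library and at most 2.12, 3.96 and 1.58 CPM in the other 3 of Nrf2 TKO. Their changes of 6.65 ± 1.43, 4.93 ± 1.095 and 5.07 ± 1.05 shrank to 3.42 ± 0.98, 2.23 ± 0.72 and 1.73 ± 0.48 without it but kept their calls (adjusted p = 0.024, 0.043 and 0.021). Male-biased genes had 7 of 14 lower and 0 higher, and 3 without replicate 2, 2 without Nrf2 TKO replicate 4 and 3 without TSC1 KO replicate 1. Cyp2d9, a male-type steroid hydroxylase, read 1764, 917, 1703 and 1739 CPM in TSC1 KO and 195, 40.96, 1371 and 368 CPM in Nrf2 TKO. Replicates 1 and 4, which are male-type by Xist and Ddx3y, were also below every TSC1 KO library, and replicate 3 lay within their range. The change of -1.63 ± 0.58 (adjusted p = 0.046) lost its call in 6 of 8 leave-one-out fits. Cyp7b1, which hydroxylates oxysterols, gave 282, 359, 265 and 259.7 and 27.7, 11.97, 228 and 25.4 CPM, again with replicate 3 nearest to TSC1 KO (-1.99 ± 0.58, adjusted p = 0.018, -1.64 with 0.04 without replicate 2), and lost its call without Nrf2 TKO replicate 1 or 4. Major urinary proteins, male-type secreted carriers, had 12 of 21 lower and 0 higher, 10 without replicate 2, 7 without Nrf2 TKO replicate 1 and 6 without TSC1 KO replicate 1. Mup12 went from 205, 46.2, 157 and 190.2 CPM to 2.48, 0.0743, 13.1 and 3.28 CPM (-5.01 ± 1.19, adjusted p = 0.0067, -4.57 without replicate 2). Mup genes are near-identical copies, so the level of any single one is uncertain. Obp2a, an odorant-binding protein, and Fitm1, a fat-storage protein, were also among the largest decreases (-4.99 ± 0.84 and -3.98 ± 0.59, adjusted p = 0.00059 and 0.00026).

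**Figure D4:**
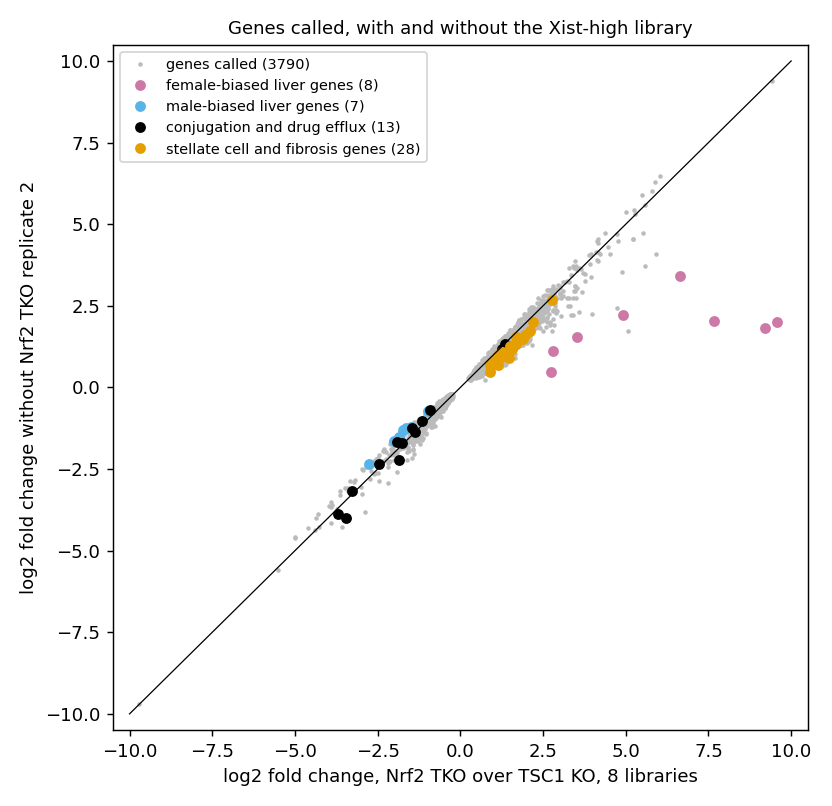
Log2 fold change of the 3790 called genes with 8 libraries (x axis) and without Nrf2 TKO replicate 2 (y axis), with the line of equality. Most genes lie near the line, while the 8 called female-biased genes (pink) drop below it, such as Cyp2c69 from 6.65 to 3.42.

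A pair among the largest changes had 0 counts in every library of 1 group. Prm1, a protamine of sperm nuclei (chr16:10796326-10805839, minus strand, GRCm38), had 0 counts in all 4 TSC1 KO libraries and 87, 97, 71 and 53 counts in Nrf2 TKO. In the 20 libraries outside Nrf2 TKO it was at 0 in 19 and at 1 in the other. Against a floor of 3 counts over the TSC1 KO group, it was at least 93.3-fold higher in Nrf2 TKO. The reverse held for CAAA01147332.1, a gene on the scaffold JH584295.1 (positions 66 to 1479), with 75 to 91 counts in TSC1 KO and 0 in every Nrf2 TKO library, at least 125-fold lower against the same floor. In the 20 libraries outside Nrf2 TKO it had 46 to 653 counts. Mybl1, a MYB-family transcription factor, rose from 0.765, 1.42, 0.483 and 1.38 CPM to 7.13, 13.2, 4.55 and 26.7 CPM (3.65 ± 0.49, adjusted p = 8.3e-05), and the call held without any 1 library. It was highest in replicate 4.

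Over the whole table, 2415 of the 3790 genes called between Nrf2 TKO and TSC1 KO also differed between Nrf2 TKO and DKO. Both comparisons use the same Nrf2 TKO libraries, so the counts here are not independent of each other. Over all genes tested, 55.9% differed between Nrf2 TKO and DKO, 29.2% lower and 26.7% higher in Nrf2 TKO. Of the genes higher in Nrf2 TKO than in TSC1 KO, 1245 were lower in Nrf2 TKO than in DKO and 213 higher. Of the genes lower in Nrf2 TKO than in TSC1 KO, 720 were higher in Nrf2 TKO than in DKO and 237 lower, and Gstm1, Ugt2b35, Abcc3, Ces1g and Cyp2a5 are among the last.

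**Figure D5:**
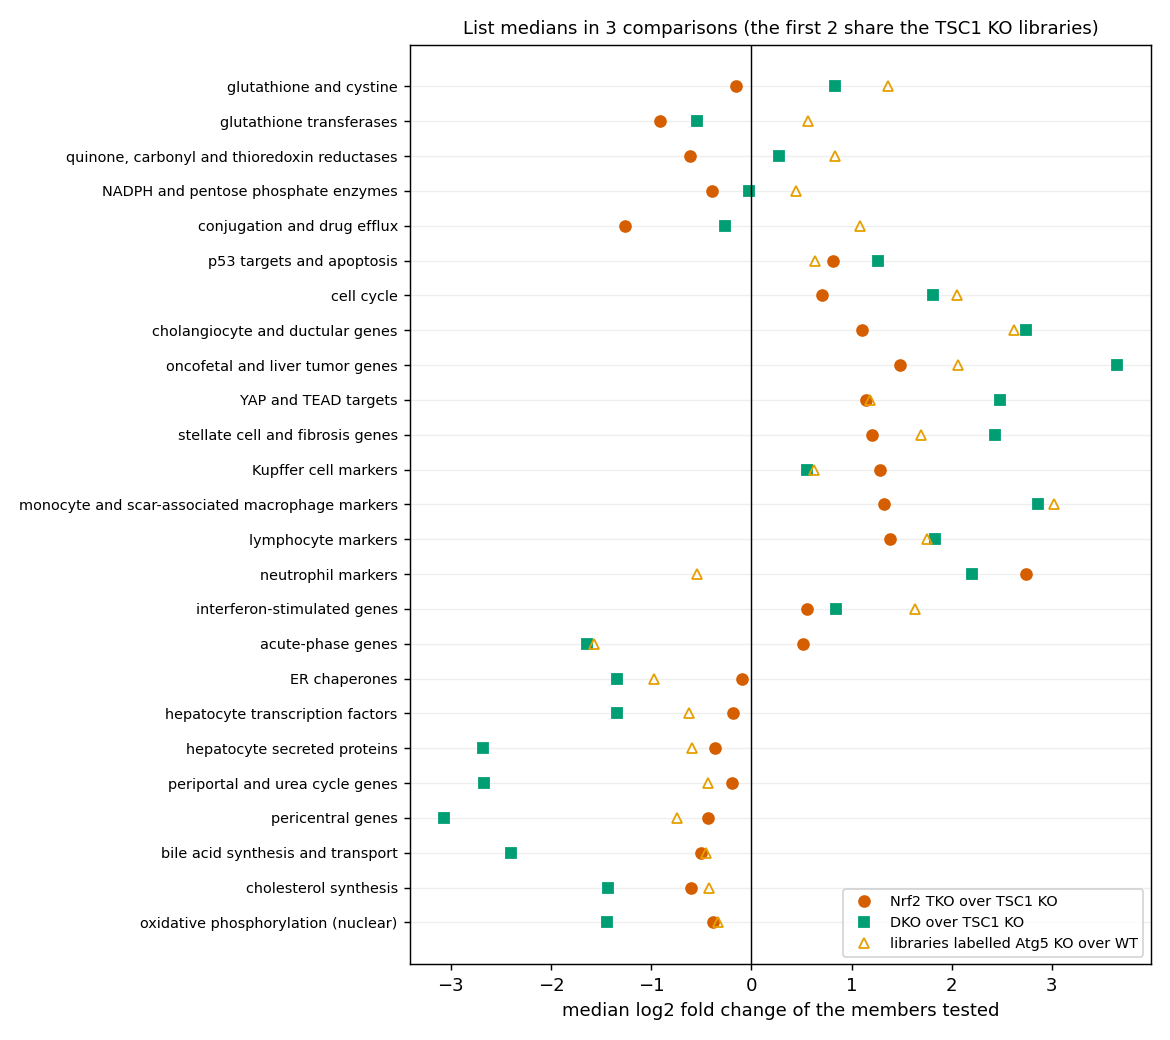
Median log2 fold change of the members tested of 25 lists (rows) in Nrf2 TKO over TSC1 KO (orange circles), DKO over TSC1 KO (green squares) and libraries labelled Atg5 KO over WT (open yellow triangles), of which the first 2 share their TSC1 KO libraries. Secreted hepatocyte proteins lie at -0.37 in Nrf2 TKO and -2.68 in DKO, and conjugation genes at -1.27 and -0.26.

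The libraries labelled Atg5 KO, set against WT, share no library with the present comparison and have Tsc1 and Nfe2l2 in place. There, 4738 genes (29.9%) were called, 18.6% higher and 11.3% lower. Of the 2306 genes higher in Nrf2 TKO than in TSC1 KO, 1352 were also higher there, 58.6% of the first list and 45.9% of the second. Of the 1484 lower genes 459 were lower there too, 30.9% and 25.6%, while 36 of the higher genes were lower there and 66 of the lower genes higher. The test of the difference between the changes passed for 932 genes (5.88%), 329 with the larger value in Nrf2 TKO over TSC1 KO (2.08%) and 603 with the smaller (3.80%), and for 574 genes without Atg5 KO replicate 3. There, 12 of 21 transferases, 10 of 18 reductases, 10 of 18 conjugation and efflux genes and 8 of 10 glutathione and cystine genes were higher and 0 lower, and the difference passed with the smaller value in Nrf2 TKO over TSC1 KO for 10, 13, 12 and 8 members. Gstm1 changed by 2.80 in Atg5 KO over WT and by -2.49 in Nrf2 TKO over TSC1 KO, a difference of -5.29 ± 0.48 (adjusted p = 4.2e-07). Gsta2, Cyp2a5 and Abcc3 gave 3.35, 3.62 and 1.34 in Atg5 KO, with differences of -5.26 ± 0.69, -7.07 ± 0.87 and -3.20 ± 0.37 (adjusted p = 8.3e-05, 3.6e-05 and 8.5e-06). Fibrosis genes were higher in both, with 29 of 32 in Atg5 KO, and the difference passed for 1. Of the p53 list 9 of 18 were higher in Atg5 KO and the difference passed for 0. Other lists differed more. The smaller value was in Nrf2 TKO over TSC1 KO for 9 of 29 cholangiocyte genes and 9 of 20 scar-associated and monocyte markers. Of 30 interferon-stimulated genes 9 had the smaller value there and 2 the larger. The larger value was there for 15 of 25 acute-phase genes, 7 of 22 ER chaperones and 4 of 9 neutrophil markers. Col1a1 gave 3.07 in Atg5 KO (difference -1.102 ± 0.47, adjusted p = 0.18) and Phlda3 2.98 (difference 0.07 ± 0.64, adjusted p = 0.97).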

How the data were processed

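Liver RNA of 6 genotypes, 4 libraries each, was measured by RNA sequencing. The authors deposited 1 table of raw read counts per gene, which per the submitters' processing notes came from Trimmomatic 0.36, HISAT2 2.1.0, HTSeq and the GRCm38 mouse genome. Whether counting used strand, and with which gene annotation, the sources used here do not give. Reads of genes that overlap on opposite strands may not be told apart. Counts were analysed as deposited. Of 33019 genes, 15851 passed filterByExpr over the 6 genotypes. edgeR 4.0.16 with TMM scaling and the robust quasi-likelihood test was fitted to all 24 libraries (18 residual degrees of freedom), and p-values were adjusted by Benjamini-Hochberg over all genes tested. A gene is called at an adjusted p under 0.05. Standard errors are the log2 fold change over the root of F. CPM values use TMM-scaled totals. The step was tested on simulated data. Total counts ran from 10494080 to 13057467 per library, and the test takes its error from the spread between libraries.

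The members and the 42 gene lists were chosen with earlier results of these data known, and none is independent support. Genes named are the targeted genes and Sqstm1, the 12 called genes that rose most and the 12 that fell most, without overlap and with at least 5 CPM on average in the group with more, up to 5 members per list with the smallest adjusted p, up to 3 with the highest CPM, and up to 5 called members with the smallest adjusted p against DKO. Promoters are from RefSeq (GRCm38.p6), matched by symbol. Of the listed symbols, Ros1, Fcn3, Ahsp and Hsd3b7 had no match in the count table. Alternatives were DESeq2 1.42.0, its size factors, total counts alone, no filter, only the groups compared, a replicate block and leaving out each library. The replicate numbers did not pair the libraries, so the model has no block. Some genes that this rule takes are not reported here.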

Additional observations from a re-analysis of the deposited data

Results flagged for a closer look

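The change in Nrf2 TKO over TSC1 KO differed from that in Atg5 KO over WT, by a test of the difference itself, for 932 genes. Single libraries also stood far from the other 3 of their group, by Dixon's ratio of the gap to the range at the 95% level, which chance alone passes in about 1 in 20 groups. How many groups were examined is not given here, so the number of flags is not set against that rate.

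Among Nrf2 TKO libraries, the female-type replicate 2 stood out for Cyp2a22 (53.4 CPM against 1.26 to 1.58 in the others) and Cyp4a14 (2357 against 843 to 986). Replicate 4 stood out for Lcn2 (591 CPM against 37.3 to 43.2) and Sqstm1 (975 against 535 to 575). Replicate 3 was low for Ctss (30.9 CPM against 60.2 to 66.8), C1qc (24.02 against 36.1 to 38.1) and Cxcl16 (14.9 against 24.7 to 26.2), and high for Atg7 (78.1 against 55.3 to 58.5). All 4 values of replicate 3 lay on the side of TSC1 KO.

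Among TSC1 KO libraries, replicate 1 was high for Me1 (259 CPM against 81.8 to 95.5), Ftl1 (2324 against 1603 to 1707) and Ugt2b5 (1261 against 952 to 993), and low for Txnrd1 (140.4 against 164 to 169), Cd63 (11.04 against 15.8 to 16.6) and Hnf4a (464 against 546 to 559.7). Replicate 2 was high for Abcc12 (13.5 CPM against 4.04 to 4.37) and low for Cyp2d9 (917 against 1703 to 1764). Replicate 3 was low for Ugdh (276 CPM against 368 to 389).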

How the results depend on the processing

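The number of genes called between Nrf2 TKO and TSC1 KO, 3790, fell to 2232 (1403 higher, 829 lower) when only the groups compared entered the fit, to 2291 (1402 and 889) without Nrf2 TKO replicate 2 and to 2231 (1447 and 784) without TSC1 KO replicate 1, and ranged from 2231 to 4651 over the 8 libraries left out (1402 to 2764 higher, 784 to 1887 lower). Total counts alone left 575 lower genes and 3298 higher. DESeq2 called 4351 genes (2395 and 1956), its size factors in edgeR 3845 (2162 and 1683) and no filter 2824 (1690 and 1134). The replicate block gave 3607 calls (2135 and 1472). Same-numbered libraries of the groups correlated at -0.01 to 0.04 and did not all correlate best with their own number. The difference from Atg5 KO over WT passed for 574 to 1354 genes over the libraries left out, 574 without Atg5 KO replicate 3. Calls between DKO and TSC1 KO ranged from 10031 to 10569 with all libraries and over those left out. For Nrf2 TKO and DKO the range was 8067 to 8893, and for Atg5 KO and WT it was 3585 to 5238. Total counts alone gave 12668, 11309 and 6068 calls in these comparisons. With only the groups compared, Nrf2 TKO and DKO differed for 7671 genes.

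Of 103 called genes named in the text, 97 were also called without Nrf2 TKO replicate 2. The sign changed under an alternative for 9 of 120 named genes, each short of the threshold with all libraries. With total counts alone Tsc1 went to 0.16, Sqstm1 to 0.021, Abcc2 to 0.012, Cps1 to 0.12, Cyp3a11 to 0.080 and Yap1 to 0.0096 on the log2 scale, and with the replicate block Hnf4a went to -0.018. Over the libraries left out, Tsc1 ranged from -0.15 to 0.091, Krt8 from -0.040 to 0.28, Hnf4a from -0.39 to 0.26, Cps1 from -0.19 to 0.11 and Hmox1 from -0.42 to 0.36. The lowest values of Krt8, Hnf4a and Hmox1 were without Nrf2 TKO replicate 4. The cause of these moves was not tested.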
